A study of Mus musculus with 2 samples.

Results

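The Mirg cluster is a run of microRNA (miRNA) genes on the plus strand of mouse chromosome 12, within the imprinted Dlk1-Dio3 domain. Its members were taken from GENCODE M21, the gene annotation named in the notes deposited with the count tables, as every plus-strand gene of type miRNA that starts in a set window of the mm10 assembly. The first starts at 109709060 and the last ends at 109747960. The rule gave 39 of the 2202 miRNA genes in the tables. It used no measured value, but it was chosen with earlier results of these data known. Small RNA libraries came from the adrenal gland of adult female mice of the strain 5xFAD/CAST, aged 8 to 10 months. The 5xFAD transgenes model Alzheimer's disease, and CAST names an inbred strain that goes back to wild castaneus mice. The labels do not say whether a sampled animal carried the transgene. The 2 libraries are biological replicates of 1 group, so the design gives levels and differences between libraries but no contrast of conditions. Each has its own biosample but both name the same donor, so the spread between them may be technical and every p-value below compares these libraries only.

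In the imprinted domain the miRNA genes are expressed from the maternally inherited chromosome, as parts of long noncoding transcripts that are cut into hairpins. The hairpins are trimmed to mature miRNAs, short RNAs that pair with messenger RNAs through their seed, bases 2 to 8, and lower their translation or stability. The cluster arose by repeated tandem duplication of a few founder hairpins and is known for high expression in brain and in endocrine and embryonic tissue. Its best known member, miR-134, limits the size of dendritic spines in neurons. GENCODE M21 annotates Mirg (ENSMUSG00000097391.8), the noncoding gene that gives the cluster its name, from 109729764 to 109749460 on chromosome 12. That interval holds 14 of the 39 members, 9 overlapping an exon and 5 in introns, whereas the other 25 lie before its annotated start and outside any other annotated gene that is not a miRNA.

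The mature sequences below are RefSeq's, placed on GRCm38.p6, the assembly also called mm10. A RefSeq hairpin was matched for 36 of the 39 members (not for Mir666, Mir544 and Gm27379), and 71 mature arms were found. The capitals mark the seed. The first set shows 6 of the 8 arms of the miR-379 type, a paralog list made of Mir379, Mir380, Mir411 and Mir758, with 2 arms from outside the list that carry the seed of one of its members.

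miR-379-5p: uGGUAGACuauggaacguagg
miR-1193-5p: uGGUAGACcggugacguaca
miR-411-5p: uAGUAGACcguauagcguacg
miR-380-5p: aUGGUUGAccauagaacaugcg
miR-758-5p: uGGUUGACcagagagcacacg
miR-1197-5p: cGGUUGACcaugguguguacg
miR-379-3p: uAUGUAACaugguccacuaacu
miR-411-3p: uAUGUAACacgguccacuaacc

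miR-379-5p and miR-1193-5p share the seed GGUAGAC, and miR-758-5p and miR-1197-5p share GGUUGAC. The 3p arms of miR-379 and miR-411 share AUGUAAC and matched at 20 of 22 bases when laid side by side from the 5′ end. Their 5p arms have different seeds, GGUAGAC and AGUAGAC, so the 2 most abundant hairpins of the cluster share a seed on one arm only. The next set shows arms of the miR-154 type, a list of 14 miRNAs of which 13 are members, with miR-485-3p from outside the list.

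miR-154-3p: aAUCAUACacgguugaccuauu
miR-369-3p: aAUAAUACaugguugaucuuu
miR-485-3p: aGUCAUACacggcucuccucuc
miR-300-3p: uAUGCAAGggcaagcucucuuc
miR-381-3p: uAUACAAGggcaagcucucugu
miR-494-5p: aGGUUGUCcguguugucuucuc
miR-410-5p: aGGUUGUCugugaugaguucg
miR-382-5p: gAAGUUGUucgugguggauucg

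miR-154-3p matched miR-369-3p at 17 of 21 bases and miR-485-3p at 16 of 22, each with 6 of the 7 seed bases. miR-300-3p and miR-381-3p matched at 19 of 22 bases with 6 of 7 in the seed. The 5p arms of miR-494 and miR-410 share the seed GGUUGUC. The last set shows arms of the miR-376 type, whose 3 genes are close neighbours, and 1 arm each of Mir134 and Mir541, the most abundant members outside the lists.

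miR-376c-5p: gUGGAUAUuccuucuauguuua
miR-376b-5p: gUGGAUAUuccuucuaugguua
miR-376b-3p: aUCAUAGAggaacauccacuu
miR-376a-3p: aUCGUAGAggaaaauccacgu
miR-134-5p: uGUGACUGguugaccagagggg
miR-541-5p: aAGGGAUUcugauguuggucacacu

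miR-376c-5p and miR-376b-5p share the seed UGGAUAU and matched at 21 of 22 bases. Over the 71 arms found there were 65 distinct seeds, and 6 seeds were shared by more than 1 member, so most of these arms have separate seeds. For some members, among them Mir376c, Mir487b, Mir539 and Mir485, only 1 arm was found. Seeds shared through a missing arm are not counted. Identity between aligned whole hairpins followed the lists in part. Its median was 61.8% over the 78 pairs of the miR-154 type, 59.1% over the 6 pairs of the miR-379 type and 63.4% over the 3 pairs of the miR-376 type, against 49.5% over the 543 other pairs. Mir376b and Mir376c were the most alike, at 80.7%. Across the lists, Mir543 and Mir382 reached 73.4%, close to the highest value within the miR-154 type, so the lists do not hold every close relative.

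**Figure D1:**
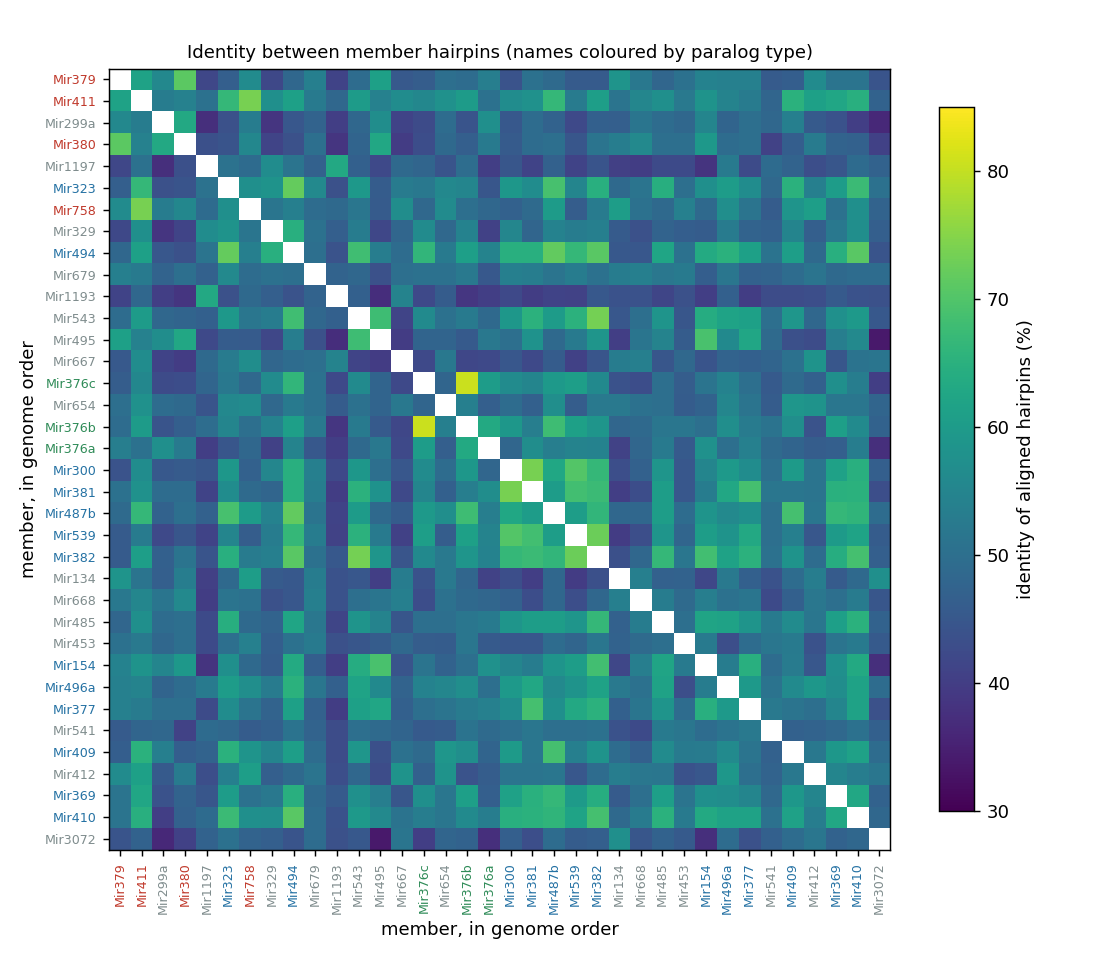
Identity between the aligned hairpins of 36 members, in percent of the alignment length, with members in genome order on both axes and names coloured by paralog type. The brightest pair is Mir376b and Mir376c at 80.7%. Pairs within the miR-154 type, whose members are scattered along the axes, have a median of 61.8%. Pairs whose members do not share a list have a median of 49.5%.

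Replicate 1 held 3635851 reads on miRNA genes and replicate 2 held 6924829, a ratio of 1.90. Levels are given as CPM, reads of a gene per 1000000 miRNA-gene reads of its library. They come from the column taken to count reads on the strand of the gene. Reads that matched several places in the genome, 31.6% and 33.6% of all reads, were assigned to no gene. A mature miRNA is read as 1 short molecule, so CPM was not divided by hairpin length. Ligation bias can still distort a comparison of 2 genes. Markers of the adrenal medulla and of endocrine cells summed to 50599 and 48309 CPM, all 3 of them detected. No list was made for the adrenal cortex. The liver marker stood at 78.1 and 108 CPM. The neuronal list stood at 0.550 and 0.578 CPM with 4 of 6 genes at 0, and these genes have copies at several loci whose reads were not assigned. The striated muscle list was at 2.75 and 0.866 CPM with 4 of 5 genes at 0. Most genes of that list also have a copy at another locus, so the low values of both lists cannot show that such cells were absent. Red cell markers summed to 427 CPM in replicate 1 and 175 CPM in replicate 2, and the endothelial marker stood at 56684 and 41532 CPM. The part of other cell types in the values below was not tested.

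The first question was how strongly the cluster is expressed in the adrenal gland. Its share of miRNA-gene reads was 3.13% in replicate 1, with a 95% interval of 3.11 to 3.14% by the exact Clopper-Pearson method. The share was 3.57% in replicate 2, with an interval of 3.55 to 3.58%, and the mean was 3.35% ± 0.312 (SD, n = 2). Such intervals cover only the counting error within each library. No molecular identifiers separate molecules from their PCR copies, so even that error may be understated. At least 10 reads in each library were counted for 33 of the 39 members, against 356 of all 2202 genes (16.2%). The median level of the detected members was 269 CPM, and that of all detected genes was 94.6 CPM. In bulk tissue a low level in all cells and a high level in few cells cannot be told apart.

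A handful of members carried the cluster. Mir411 stood at 8188 CPM in replicate 1 and 7742 CPM in replicate 2, rank 25 of all genes. Mir379 stood at 4580 and 9030 CPM, rank 28. Mir382 reached 4538 and 5855 CPM, and Mir541 4269 and 4682 CPM, at ranks 33 and 36. Across the libraries the ranges of neighbours in this order overlapped. Mir411 was above Mir379 in replicate 1 and below it in replicate 2, so the order of this pair is not settled. Mir379 was above Mir382 in both libraries, though by little in replicate 1, and Mir382 was above Mir541 in both. The lowest of the 4 was well above Mir134 in both libraries. Together the 4 held 72.8% ± 5.33 of cluster reads (SD, n = 2) and the first 10 held 89.1% ± 2.79. No more than 7 members reached a mean of 1000 CPM, 13 lay between 100 and 1000 CPM, and 13 detected members lay below 100 CPM.

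**Figure D2:**
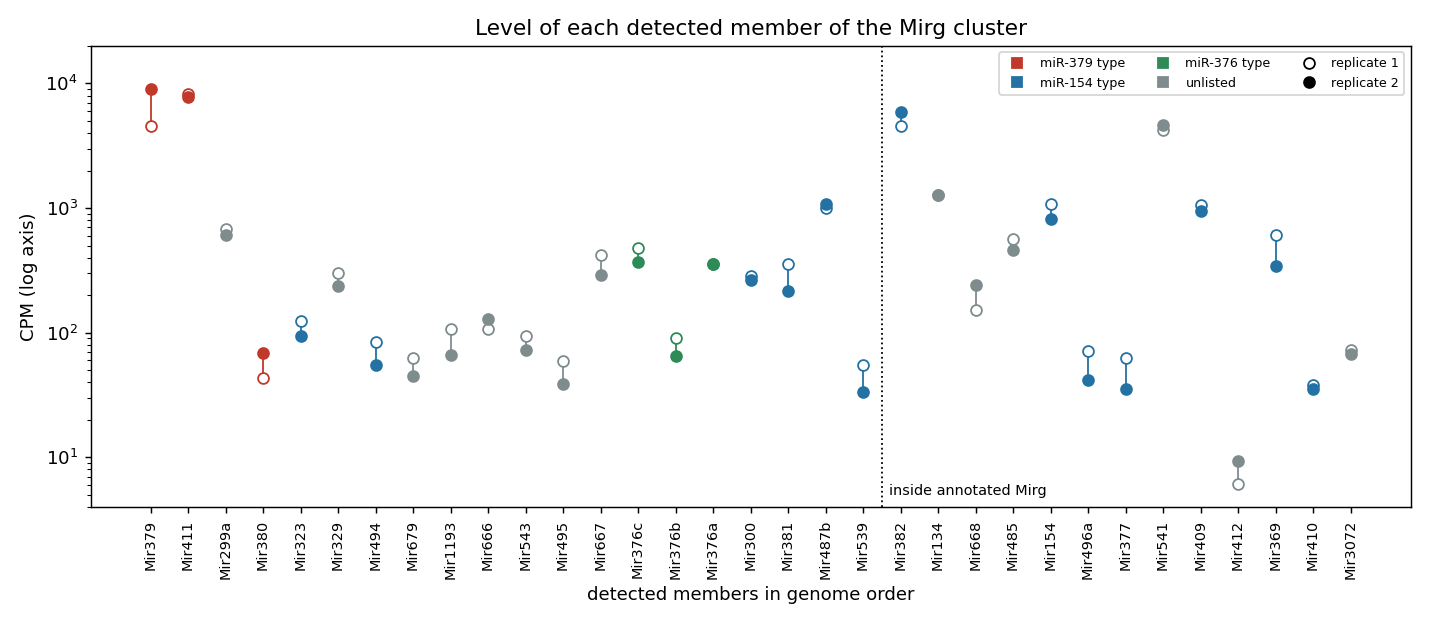
Level of the 33 detected members in CPM on a log axis, in genome order, with replicate 1 as open and replicate 2 as filled circles and paralog types by colour. Mir411, Mir379, Mir382 and Mir541 are the highest, none of them under 4269 CPM in either library, and Mir412, at 6.05 and 9.39 CPM, is the lowest.

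In genomic terms the leading hairpins are spread out. Mir379 (ENSMUSG00000065498.4) opens the cluster at 109709060 to 109709125 and Mir411 (ENSMUSG00000065477.3) follows at 109710175 to 109710256, both outside annotated Mirg. Mir382 (ENSMUSG00000065428.4) lies at 109733771 to 109733846 in an exon of Mirg, and Mir541 (ENSMUSG00000076052.1) at 109742409 to 109742498 in an intron. The 7 members within 4 kb of the start of Mir379, a stretch chosen after the values were seen, held 46.4% ± 3.98 of cluster reads. The 25 members before Mirg held 57.2% ± 1.85, those in Mirg exons 23.4% ± 0.101 and those in Mirg introns 19.5% ± 1.75 (SD, n = 2). Level did not follow position in a simple way, with a Spearman's rho of -0.11 between start and mean CPM over the 33 detected members, which share the same libraries and are not independent.

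**Figure D3:**
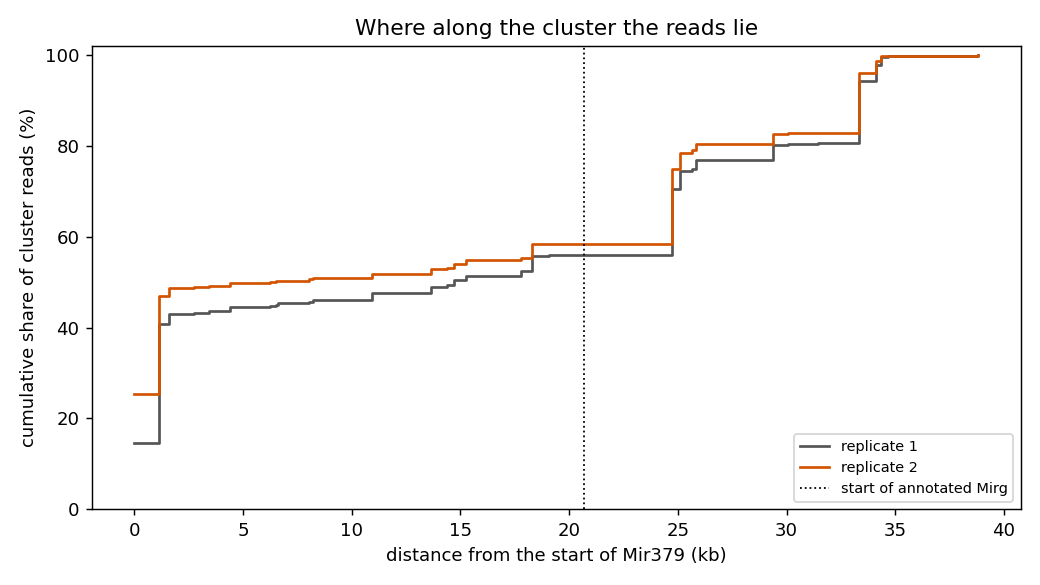
Cumulative share of cluster reads, in percent, against the distance from the start of Mir379 in kb, for replicate 1 in grey and replicate 2 in orange. The curves rise in steps at Mir379 and Mir411, at Mir382 and at Mir541, and the dotted line marks the start of annotated Mirg, before which 55.9% of cluster reads in replicate 1 and 58.5% in replicate 2 had been counted.

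Neighbouring hairpins could differ widely in level. Over the 32 pairs of consecutive detected members the median absolute difference in log2 CPM was 1.89, and over all 528 pairs of detected members it was 2.45. For the 10 consecutive pairs that start less than 500 bases apart it was 2.12. Near the end of the cluster, Mir409, Mir412, Mir369 and Mir410 start 34.1, 34.2, 34.4 and 34.7 kb from Mir379, at mean levels of 1003 ± 70.7, 7.72 ± 2.36, 472 ± 185 and 36.8 ± 2.02 CPM (SD, n = 2). These 4 genes were picked after their values were seen. Hairpin length, GC content and predicted folding energy did not order the levels either, with rho of 0.0018, 0.064 and 0.032 over the same 33 members.

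The miR-379 type took a large part of the cluster reads with few genes. Its 4 members held 41.0% of them in replicate 1 and 47.2% in replicate 2, nearly all from Mir411 and Mir379. Mir380, which has 71.2% hairpin identity to Mir379, stood at 42.9 and 69.0 CPM. Mir758, with 73.8% identity to Mir411, had 6 and 10 reads, or 1.65 and 1.44 CPM, under the minimum for detection. Mir411 and Mir758 share a stretch of 20 bases, so their counts are uncertain, and without the 5 members that share such a stretch the type held 28.0% of the remaining cluster reads, below the 36.0% of the miR-154 type. The levels of Mir379 and Mir411 overlapped between the libraries, whereas Mir380 was far below Mir379 in both. Mir1193, which carries the seed of miR-379-5p, stood at 106 and 66.7 CPM, also far below Mir379. The counts are per hairpin, and which arm the reads came from was not analysed here.

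All 13 members of the miR-154 type were detected, and they held 29.9% and 27.5% of cluster reads. Mir382 was the highest of them. Mir487b stood at 997 and 1068 CPM, a count that is uncertain because Mir487b shares 20 bases with Mir376b. Mir409 stood at 1053 and 953 CPM. Mir154, after which the type is named, stood at 1074 and 822 CPM. These 3 lay within a narrow band and far below Mir382. Mir369, whose 3p arm has been linked to AU-rich elements of messenger RNAs, stood at 603 and 341 CPM. Mir381 stood at 359 and 217 CPM, and its close paralog Mir300 at 283 and 266 CPM. The levels of this pair overlapped between the libraries. Mir323 stood at 123 and 93.9 CPM and Mir494 at 84.7 and 55.5 CPM. Mir496a stood at 71.5 and 41.7 CPM, Mir377 at 62.4 and 35.4 CPM, Mir539 at 55.3 and 33.6 CPM and Mir410 at 38.2 and 35.4 CPM. The type thus spanned from 36.8 to 5196 mean CPM.

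Transcripts of the miR-376 type are known substrates of RNA editing. The 3 genes of this type start 13.7, 14.4 and 14.7 kb from Mir379, with Mir654 between the first and the next. They held 2.96% and 2.23% of cluster reads. Mir376c stood at 475 and 370 CPM, Mir376a at 358 and 359 CPM and Mir376b at 89.9 and 65.0 CPM. Mir376b was below the other two in both libraries. It shares 20 bases with Mir376c and with Mir487b, and the reads that match both genes could not be assigned, so the low value is uncertain. Mir376a was not counted in the unstranded column, where the type held 1.62% of cluster reads, and it held 1.51% without the members that share 20 bases.

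**Figure D4:**
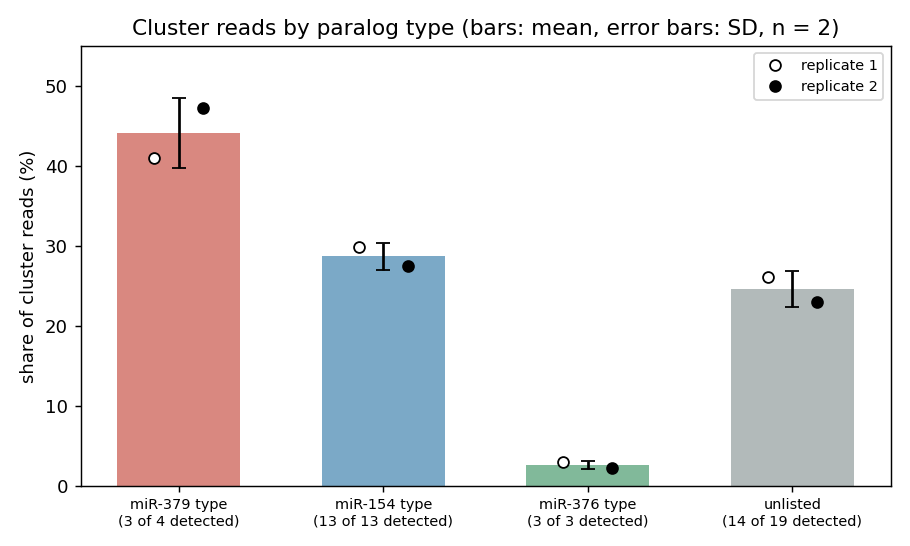
Share of cluster reads in percent for each paralog list, as the mean (bar) ± SD (error bar) of the 2 libraries with replicate 1 as open and replicate 2 as filled circles. The miR-379 type holds 44.1% with 3 detected genes and the miR-154 type 28.7% with 13.

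Outside the lists, 14 of 19 members were detected and held 26.2% and 23.0% of cluster reads. Apart from Mir541, the highest was Mir134, at 1283 and 1261 CPM (mean 1272 ± 15.4, SD, n = 2). Mir299a stood at 681 and 610 CPM and Mir485, known for acting on synaptic genes, at 568 and 460 CPM. Mir667 stood at 417 and 290 CPM, Mir329 at 300 and 239 CPM and Mir668 at 152 and 241 CPM. Of these, Mir668 was higher in replicate 2 and the others were lower. Mir666 stood at 106 and 130 CPM, Mir543 at 93.2 and 72.2 CPM and Mir3072, the last member, at 72.6 and 67.7 CPM. Mir679 stood at 62.2 and 45.2 CPM, Mir495, a regulator of the growth factor gene Bdnf, at 59.4 and 38.4 CPM and Mir412 at 6.05 and 9.39 CPM. In the order of all 33 levels, 25 of the 32 neighbouring pairs had ranges over the 2 libraries that overlapped. Such a pair can still keep its order within each library, as Mir382 and Mir541 did. The order was clear of overlap only below Mir541, Mir134, Mir154, Mir299a, Mir376c, Mir668 and Mir410.

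Besides Mir758, the members under the minimum were Mir654, with 1 and 0 reads, and Mir544, with 0 and 3 reads. Mir1197, Mir453 and Gm27379 had no read in either library. A count of 0, taken as at most 3 counts, allows up to 0.825 CPM in replicate 1 and 0.433 CPM in replicate 2 of uniquely assigned reads.

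The strand of counting decided whether 5 members were seen at all. Mir299a, Mir380, Mir376a, Mir539 and Mir409 each overlap an annotated miRNA gene on the minus strand. Their gene-strand reads numbered 7965 in replicate 1 and 14015 in replicate 2, or 7.01% and 5.67% of cluster reads, whereas the deposited column without strand held 1 and 0 of them. Mir409 had 3828 and 6598 gene-strand reads and none without strand. The overlapping genes themselves had few reads on their own strand. Mir299b, opposite Mir299a, had 3 and 7 reads, and Gm25750, Gm25252, Gm44322 and Gm24321 had 0. If the main column does count the strand of the gene, the reads of these 5 pairs came nearly all from the plus strand.

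The second question was how the cluster differed between the libraries. Mir379 had the largest difference upward, with 4580 CPM in replicate 1 and 9030 CPM in replicate 2, a log2 ratio of 0.98 (exact 95% counting interval 0.95 to 1.00). With plain library totals, the difference in the share of the cluster was not seen without this gene. Leaving it out, a choice made after the data were seen, the other 38 members held 2.67% of reads in replicate 1 and 2.66% in replicate 2, a log2 ratio of -0.002 (interval -0.013 to 0.0092; Fisher's exact test, two-sided, p = 0.717). TMM normalization shifts every log2 ratio up by 0.20, this one included, so that with it the other members were not level between the libraries. Within that sum single members differed in both directions, and its balance depended on which members were counted. With plain totals, leaving out Mir379 and Mir411 gave a log2 ratio of 0.03. Leaving out Mir379 and Mir382 gave -0.09.

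Other members called higher in replicate 2 were Mir380, with a log2 ratio of 0.68, Mir668 with 0.66, Mir382 with 0.37, Mir666 with 0.29, Mir541 with 0.13 and Mir487b with 0.10. Mir412, with 22 and 65 reads, had a log2 ratio of 0.61 that was not called with plain totals (Fisher's exact test, adjusted p = 0.149) and was called higher with TMM normalization (exact binomial test, adjusted p = 0.0385). The lowest ratios were those of Mir369 at -0.82, Mir377 at -0.82, Mir496a at -0.78, Mir381 at -0.73 and Mir539 at -0.72. All 5 of these belong to the miR-154 type. Their p-values from the two-sided Fisher's exact test, adjusted by Benjamini-Hochberg over all genes tested, lay between 6.90e-80 for Mir369 and 1.17e-06 for Mir539. The type holds 13 of the 33 detected members. The next lowest ratios, Mir1193 at -0.67 and Mir495 at -0.63, were of members outside the lists. No member reached a 2-fold difference with plain library totals. With TMM normalization Mir379 did so, at 1.18.

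Fisher's exact test called 27 of the 34 members tested, of which 7 were higher in replicate 2 and 20 were lower. Of all 455 genes tested 52.5% were called, 16.9% higher and 35.6% lower. Among all detected genes, which leave out those with few reads, 63.5% were called. With TMM normalization 25 members were called, 11 higher and 14 lower, against 52.7% of all genes, 27.3% higher and 25.5% lower, so the balance of directions depended on the scaling. Mir411 had a log2 ratio of -0.08 and was called lower with plain totals but stood at 0.12 and was called higher with TMM normalization. The median over the 33 detected members was -0.30, beside -0.19 over all detected genes, and with TMM normalization the medians were -0.10 and 0.0067. That test knows no error beyond counting. When the spread between the libraries was added as a common dispersion in edgeR's exact test (a coefficient of variation of 31.2% over 356 genes), 0 of the 34 members were called and 0 had an unadjusted p under 0.05. Of all genes, 1.1% were called by edgeR's test. That dispersion was estimated from the same difference between the 2 libraries that was under test. Few calls are thus built in, and the 0 cannot show that the members were alike.

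By type, 9 of the 13 members of the miR-154 type were called lower in replicate 2 and 2 higher (Mir382 and Mir487b), with a median log2 ratio of -0.39. Of all genes tested 35.6% were lower and 16.9% higher. All 13 were detected, and of the 356 detected genes, a closer background, 154 were lower and 72 higher, with a median of -0.19. With TMM normalization 7 of the 13 were lower and 2 higher, with a median of -0.19. Beside them 25.5% of all genes were lower and 27.3% higher, and of the 356 detected genes 110 were lower and 118 higher. EdgeR's exact test called 0 of the 13. Of the 4 genes of the miR-379 type 2 were called higher and 1 lower, or 3 higher and 0 lower with TMM normalization. In the miR-376 type Mir376b and Mir376c were lower at -0.47 and -0.36 and Mir376a stood at 0.0011, or at 0.20 and called higher with TMM normalization.

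**Figure D5:**
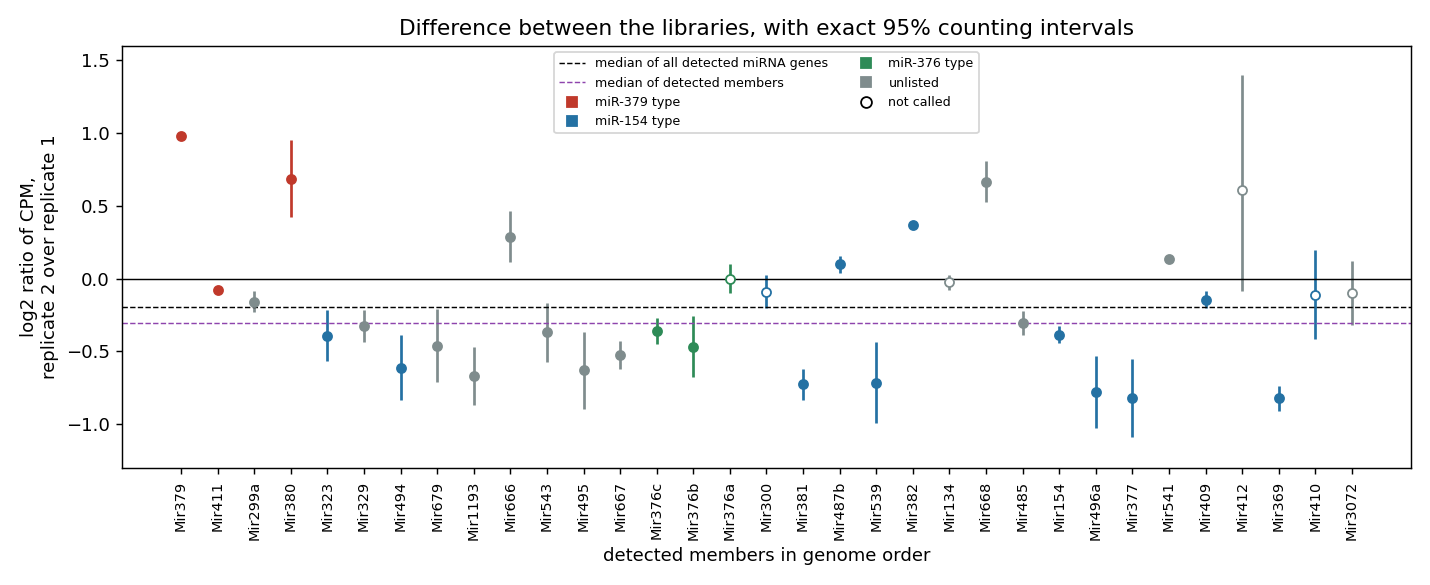
Log2 ratio of CPM in replicate 2 over replicate 1 for the 33 detected members in genome order, with exact 95% counting intervals; filled points were called by Fisher's exact test. Mir379 stands highest at 0.98 and Mir369 lowest at -0.82; the dashed lines mark the median of the detected members (-0.30) and of all detected miRNA genes (-0.19).

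The 20 plus-strand miRNA genes of the same imprinted domain that lie just before the cluster served for comparison. They took 3.37% and 2.50% of miRNA-gene reads, most of them from Mir127, which stood at 23827 and 15607 CPM. The cluster had 0.928 reads per read of these genes in replicate 1 and 1.43 in replicate 2, a log2 change of 0.62 that does not depend on library totals. The change was 0.43 without Mir379, 0.27 without Mir127 and 0.07 without both (Fisher's exact test, two-sided, p = 2.95e-11 for the last). These exclusions were chosen after the data were seen. Mir379 rose more than the cluster as a whole, and Mir127 fell more than the upstream genes as a whole. Smaller changes without them were therefore bound to follow.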

How the data were processed

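MicroRNA sequencing was done on 2 adrenal gland libraries of 1 group. The authors deposited raw counts per miRNA gene in 3 unnamed columns for each library, with assembly mm10 and annotation GENCODE M21 per the notes deposited with the tables. Aligner, counter and trimming: not given in the sources used here. In both libraries the counts of the last 2 columns add up to those of the first once reads listed as ambiguous are allowed for. The first was thus read as unstranded and the others as 1 strand each. That sum cannot show which of these is the strand of the gene. The second column was taken as such and used as the main one. For members with no opposite-strand gene, the third column held 1 read in replicate 1 and 1 in replicate 2. Entries that name no gene stayed out of all totals; in the main column they held 16.1% and 16.5% (unmapped), 31.6% and 33.6% (multimapping) and 5.55% and 4.99% (no gene) of reads. All 2202 identifiers matched GENCODE M21.

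Depth was 3635851 and 6924829 reads; 1 read is thus well under 1 CPM in both. Detected means at least 10 reads in each library. Fisher's exact test per gene (two-sided) ran over all miRNA genes with at least 10 reads summed over the libraries, and p-values were adjusted by Benjamini-Hochberg, with a threshold of 0.05. For TMM and DESeq2 scaling, scaled totals entered an exact binomial test. The dispersion for edgeR's exact test came from an intercept-only model of the same 2 libraries with TMM factors, and the test itself used plain library totals. An offset of 0.5 counts was added before log2 ratios were taken. Fisher's exact test was tried on simulated libraries with counting error only. That setting holds no further spread between libraries, so it cannot show how the calls behave on these 2. Hairpins were aligned globally (match 1, mismatch -1, gap -2 and -0.5 per further base) and folded with RNAfold. Shared stretches are 20 bases found in another annotated miRNA gene; the rest of the genome was not searched. The members and lists were chosen with earlier results of these data known; paralog lists come from general knowledge. The rule for named genes was to give every member with at least 10 reads in each library its values, to name the rest, and to name each called member with a 2-fold difference. Alternatives were the unstranded column, other minimums, scalings and offsets, all reads as denominator, leaving out each library, and leaving out members with shared stretches. Software was edgeR 4.0.16 and DESeq2 1.42.0 in R 4.3.3, and scipy 1.17.1, Biopython 1.88 and matplotlib 3.10.9 in Python 3.11.15, with RNAfold 2.7.2.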

Additional observations from a re-analysis of the deposited data

How the results depend on the processing

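The share of the cluster, the number of detected members and the calls by Fisher's exact test kept their size under most alternatives. With all reads as denominator the share was 1.53%, and without Mir379 it was 2.67%, an alternative added after the data were seen. With edgeR's exact test 0 members and 5 of all genes were called, in place of 27 and 239. The median log2 ratio of -0.30 moved to -0.10 with TMM and -0.13 with DESeq2 size factors. The rank correlation of level with position was -0.17 in the unstranded column, -0.048 with a minimum of 1 read, -0.034 with 100, -0.058 without members sharing 20 bases, and from -0.089 to -0.066 in single libraries. Without members sharing 20 bases the miR-154 type held 36.0% of cluster reads, the miR-379 type 28.0% (Mir411 is among those left out) and the miR-376 type 1.51%, which was 1.62% in the unstranded column. The cause of the remaining shifts was not tested.

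Scaling turned the sign of 7 small log2 ratios, given for TMM and DESeq2 in turn: Mir411 0.12 and 0.096, Mir299a 0.039 and 0.016, Mir300 0.11 and 0.087, Mir134 0.17 and 0.15, Mir409 0.055 and 0.032, Mir410 0.086 and 0.062, Mir3072 0.098 and 0.075. With an offset of 5 counts Mir376a stood at -0.0013. In the unstranded column 12 of 33 member levels moved by more than the SD of the libraries. Among them were the 5 members with an opposite-strand gene, which lost nearly all their reads. The rest of the 12 kept their reads. Their CPM rose with the smaller totals of that column, 3159960 reads in replicate 1 and 6119201 in replicate 2.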

Other observations

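A stretch of 7 bases, GUUGACC, occurred in the mature arms of 5 members and in no other of the 1738 mature arms of the RefSeq table (5 of 71 member arms, 7.04%, against 0.288% of all arms, searched on the mature strand only). It was picked after reading the sequences and lies at different places: from base 3 or 4 in miR-380-5p, miR-758-5p and miR-1197-5p, where it overlaps the seed, from base 9 in miR-134-5p and from base 12 in miR-154-3p. The genes that carry it span from no read (Mir1197) to 1272 ± 15.4 CPM (Mir134; SD, n = 2).

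The hairpins of the cluster are poor in G and C, with a median GC content of 43.6% against 50.8% over all 2202 miRNA genes and 55.4% over the 20 upstream genes of the domain. Members with more GC tended to have higher log2 ratios of replicate 2 over replicate 1, with a Spearman's rho of 0.29 over 33 detected members and 0.026 over all 356 detected genes, points that share the same 2 libraries. Its part in the differences between the libraries was not tested.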
